A study of Oryctolagus cuniculus with 35 samples.

Results

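The 7 lungs of rabbits given ceftaroline together with mesenchymal stromal cells (MSC) fell into separate sets by their IL6 messenger RNA, with 3 lungs low and 4 high and none between. The lungs were split at 100 normalized reads of IL6 in the authors' deposited table of ceftaroline plus MSC and ceftaroline lungs. IL6 stood at 24.5, 36.4 and 8.79 normalized reads in lungs E3, E5 and E6, called low-IL6 here, against 6589, 1475, 3364 and 965 normalized reads in lungs E1, E2, E4 and E7, called high-IL6. The highest value under the split was 36.4 and the lowest above it was 965. The 7 lungs are 7 of 35 in the series. Because measured values chose the sets, every gene of these 7 lungs is described and no test is made between the sets.

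All animals were New Zealand rabbits and every library came from lung pieces, 1 library per animal, with 7 animals in each group. The ceftaroline plus MSC group (E1 to E7) was infected with pneumococcus, put under adverse mechanical ventilation and given ceftaroline at 20 mg/kg into the muscle and human umbilical cord MSC at 3000000 cells per kg into a vein. The ceftaroline, MSC and NaCl groups had the same pneumonia and ventilation and were given ceftaroline alone, MSC alone or NaCl alone, at those doses. The healthy group had no pneumonia and was given NaCl. Treatment followed inoculation by 4 h. Autopsy was 24 h after inoculation, or on death where that came sooner, and the labels do not say which animals died early. The model carries infection and ventilation together in every diseased animal, and the number of human cells left in each lung is not given.

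IL6 is a cytokine made by macrophages, endothelium, fibroblasts and other cells when Toll-like receptors, IL1 receptors or TNF receptors signal through NF-kB. It binds IL6R, and the pair recruits gp130 (IL6ST), whose JAK kinases activate the transcription factor STAT3; SOCS proteins feed back on the kinases. In bacterial pneumonia it rises with neutrophil recruitment and drives acute-phase proteins such as haptoglobin.

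**Figure D1:**
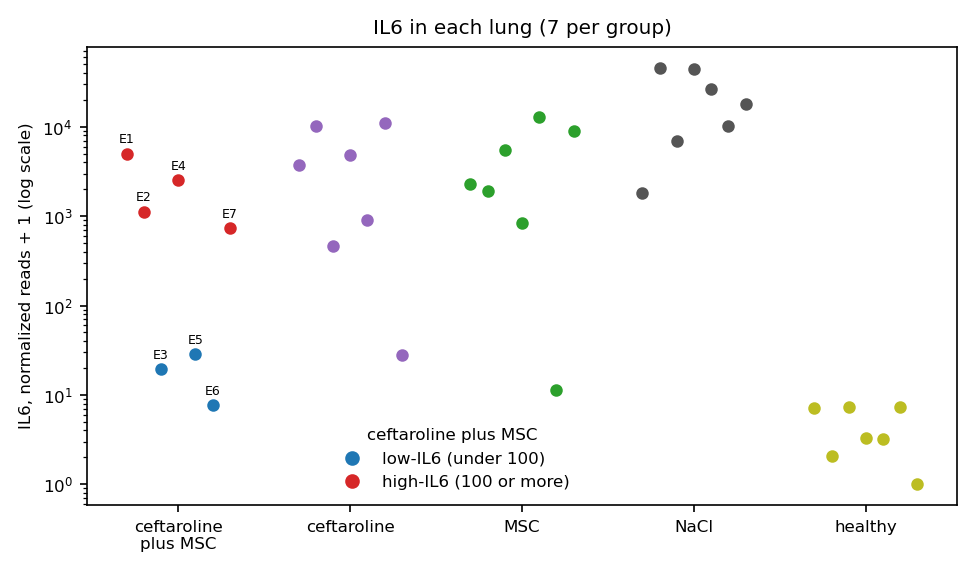
IL6 level in each of the 35 lungs (vertical axis, normalized reads on a scale common to all libraries plus 1, log scale) by group, 1 point per lung. The 3 low-IL6 lungs (blue) lie between 6.62 and 27.6 and the 4 high-IL6 lungs (red) between 730.2 and 4979, with no lung of the group between the sets.

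On a scale common to all 35 libraries, IL6 ranged over 6.62 to 27.6 normalized reads in the low-IL6 lungs and 730.2 to 4979 in the high-IL6 lungs, against 1820 to 45728 in NaCl lungs and 0 to 6.37 in healthy lungs. A lung of the MSC group, replicate 6, had 10.4, with the other MSC lungs at 829 to 12799. A lung of the ceftaroline group, replicate 7, had 26.6, with the other ceftaroline lungs at 461 to 10964. Low IL6 in pneumonia was thus seen in 1 lung of each single-treatment group as well, and in no NaCl lung. In the plot of IL6 by lung these lungs stand well below the rest of their groups.

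Depth did not separate the sets: the low-IL6 libraries held 11996117 to 15232917 reads and the high-IL6 libraries 11137017 to 18271138, within 7567008 to 33209729 over all 35 libraries. Genes with a read numbered 11703 to 11815 in low-IL6 and 11520 to 11872 in high-IL6 libraries. The 50 most abundant genes took 17.5% to 19.8% of the reads in low-IL6 libraries and 19.0% to 29.0% in high-IL6 libraries. Values of the 7 lungs are given below as deposited (normalized reads), and values set beside other groups are on the common scale. In all 35 libraries 10217 of 23669 genes were listed at 0, among them COX4I1 and LDHA, which nearly every cell uses, so a listing at 0 does not show that a gene was silent.

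The 2 sets differed over a large part of the transcriptome. Of 10105 genes with a mean of at least 10 normalized reads in the 7 lungs, 2171 (21.5%) were lower in all 3 low-IL6 lungs than in any high-IL6 lung, and 2150 (21.3%) were higher in all 3. Since IL6 chose the sets, these shares are a description, and nothing is read from their size. In bulk tissue, fewer cells of a type and less RNA per cell cannot be told apart. In a principal component analysis of the 7 lungs, the first component held 63.1% of the variance, and its loadings were -0.45, -0.39 and -0.41 for E3, E5 and E6 against 0.39, 0.53, 0.16 and 0.17 for E1, E2, E4 and E7. E4 and E7 thus lay nearer the middle than E1 and E2.

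Whether a gene follows IL6 elsewhere was tested in the 21 lungs of the NaCl, MSC and ceftaroline groups, none of which the split used. The measure is a slope within groups, the log2 change of a gene per log2 unit of IL6, called at a limma Benjamini-Hochberg adjusted p under 0.05. Of 9789 genes tested, 1058 (10.8%) rose with IL6 and 1034 (10.6%) fell. Among genes lower in the low-IL6 lungs, 814 of 2161 tested rose with IL6 in the 21 lungs (37.7%) and 2 fell. Among genes higher in the low-IL6 lungs, 797 of 2044 fell with IL6 (39.0%) and 0 rose. Among genes whose sets overlapped, 230 of 5517 rose (4.17%) and 235 fell (4.26%). Across 9722 genes the difference between the sets and the slope had a Spearman correlation of -0.75, given as a description over genes that share libraries and scaling.

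Fewer slopes were called without a pair of lungs. Without MSC replicate 6 and ceftaroline replicate 7, the lungs of lowest IL6, 240 genes rose and 241 fell; without MSC replicate 6 alone the counts were 608 and 568, and without ceftaroline replicate 7 alone 538 and 499. Within the 7 NaCl lungs alone, limma called 0 genes in either direction (630 at an unadjusted p under 0.05). A test of whether slopes differed between the 3 groups called 0 of 9789 genes by limma (717 at an unadjusted p under 0.05). Of the genes given with values below, the slopes of ADAMTS4, CAMP, CXCL8, STAT3, TNFAIP6, TNFAIP3, SELP, THBS1, MMP1, TCF21, HADH and SMTNL2 were still called without those lungs, and the other called slopes were not. A lost call does not by itself show a smaller slope: without those 2 lungs the slope of IL1B was 0.50 against 0.47 over the 21 lungs, that of HIF1A 0.25 against 0.21 and that of CCL4 0.69 against 0.73, whereas that of EMP2 was -0.01 against -0.21 and that of PKM 0.07 against 0.25.

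**Figure D2:**
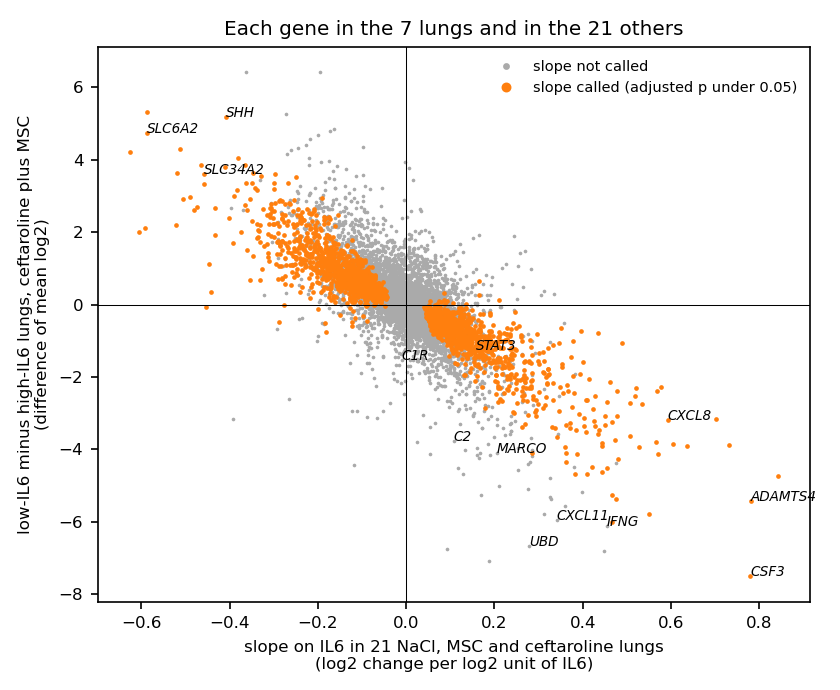
Each point is a gene: the slope on IL6 in the 21 NaCl, MSC and ceftaroline lungs (horizontal axis, log2 change per log2 unit of IL6) and the difference of mean log2 normalized reads between low-IL6 and high-IL6 ceftaroline plus MSC lungs (vertical axis). Called slopes are orange; UBD, CXCL11, IFNG, C2, C1R and MARCO lie far below 0 on the vertical axis with slopes that were not called.

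To place each lung between health and untreated pneumonia, 3491 genes (36% of those tested) were used that differed between NaCl and healthy lungs by at least 1 on the log2 scale at an adjusted p under 0.05 (limma), IL6 left out. Each lung's value is the median, over these genes, of the share of the NaCl minus healthy difference, so that 0 is the healthy mean and 1 the NaCl mean. E3, E5 and E6 had medians of 0.13, 0.27 and 0.23, against 0.80, 0.87, 0.70 and 0.65 in E1, E2, E4 and E7. The low-IL6 lungs were therefore closer to healthy lungs and the high-IL6 lungs closer to NaCl lungs, without overlap. MSC replicate 6 was at 0.23, the other MSC lungs at 0.69 to 0.96. Ceftaroline replicate 7 was at 0.30, the other ceftaroline lungs at 0.54 to 1.05. Healthy lungs ran from -0.05 to 0.06, and all 3 low-IL6 lungs lay above them. The healthy lungs helped choose the genes and set 0, so their place near 0 was fixed beforehand. No remaining difference from health is read from this order.

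**Figure D3:**
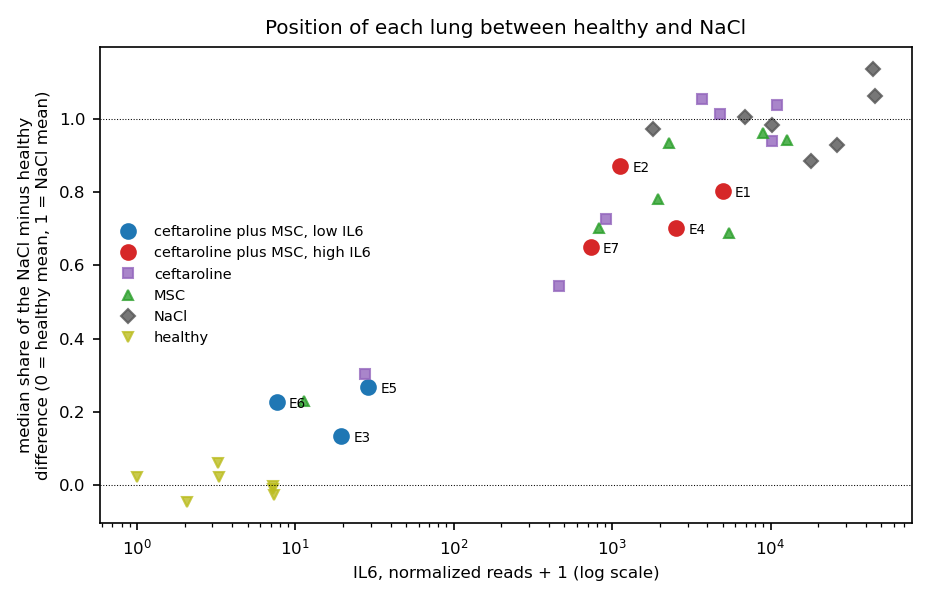
Median share of the NaCl minus healthy difference (vertical axis; 0 is the healthy mean, 1 the NaCl mean) against IL6 (horizontal axis, normalized reads on the common scale plus 1, log scale), 1 point per lung. E3, E5 and E6 (blue) lie at 0.13 to 0.27 beside MSC replicate 6 and ceftaroline replicate 7, and E1, E2, E4 and E7 (red) at 0.65 to 0.87.

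Most of the differences between the sets ran along this axis. Over all genes, 2905 (29.9%) were called higher and 2974 (30.7%) lower in NaCl than in healthy lungs. Of the 2171 genes lower in the low-IL6 lungs, 1631 (75.1%) were higher in NaCl than healthy lungs and 9 lower. Of the 2150 genes higher in the low-IL6 lungs, 1636 (76.1%) were lower in NaCl than healthy lungs and 31 higher. A further 485 of the lower genes (22.3%) and 439 of the higher genes (20.4%) separated the sets although NaCl and healthy lungs were not called different. The interferon, complement and antigen presentation genes described below include several of these. Each list count below is to be read beside the shares over all genes. Those were 21.5% lower and 21.3% higher over described genes, and 10.8% rising and 10.6% falling over genes tested for a slope.

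In the IL6 pathway itself, 11 of 14 described genes were lower in all 3 low-IL6 lungs and 1 was higher, and 8 of 14 rose with IL6 in the 21 lungs while 1 fell. Haptoglobin (HP), an acute-phase protein that binds free haemoglobin, had 1455, 779 and 701 normalized reads in E3, E5 and E6, against 77249, 20170.0, 20163 and 52828 in E1, E2, E4 and E7. The low-IL6 values lay 38.7-fold below the high-IL6 values on the mean log2 scale, and HP rose with IL6 in the 21 lungs with a slope of 0.47 ± 0.07 (SE, adjusted p = 0.000152). STAT3, the transcription factor that IL6 activates, had 621, 726 and 638 normalized reads in the low-IL6 lungs (E3, E5, E6) and 1464, 1659, 1656 and 1536 in the high-IL6 lungs (E1, E2, E4, E7). Its sets were tight and apart, and its slope was 0.16 ± 0.02 (SE, adjusted p = 0.000214). For gp130 (IL6ST) the values were 849.5, 724 and 735 normalized reads in the low-IL6 lungs (E3, E5, E6) and 1153, 917, 1540.3 and 1129 in the high-IL6 lungs (E1, E2, E4, E7), a difference of -0.60 on the log2 scale, with a slope of 0.09 ± 0.03 (SE, adjusted p = 0.0427). IL6R, the ligand-binding receptor, had 1166, 1199.7 and 1158 normalized reads in the low-IL6 lungs (E3, E5, E6) and 2614, 3092, 2430.4 and 1839.8 in the high-IL6 lungs (E1, E2, E4, E7). Its sets did not overlap, but its slope of 0.07 ± 0.04 (SE, adjusted p = 0.267) was not called. SOCS1, a feedback inhibitor of JAK kinases, had 126, 101 and 136 normalized reads in E3, E5 and E6, against 3346, 2790.0, 1205 and 1342 in E1, E2, E4 and E7. All 4 high-IL6 lungs were also above every NaCl lung for SOCS1, at 911 to 2528 against 55.7 to 888 on the common scale, and its slope of 0.29 ± 0.11 (SE, adjusted p = 0.0788) was not called. For SOCS1, MSC lungs ran from 27.3 to 992 and ceftaroline lungs from 68.0 to 872. SOCS3 has no row in the deposited tables, and BCL3, CEBPB, LIF and TYK2 were listed at 0 everywhere.

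Cytokine genes were mostly lower in the low-IL6 lungs. CSF3, the granulocyte colony-stimulating factor that drives neutrophil production, had 4.08, 5.08 and 9.89 normalized reads in the low-IL6 lungs (E3, E5, E6) and 1334, 939, 3396 and 614 in the high-IL6 lungs (E1, E2, E4, E7). The difference was -7.52 on the log2 scale, and the slope on IL6 elsewhere was 0.78 ± 0.13 (SE, adjusted p = 0.00072). IL1B had 705, 276 and 259 normalized reads in the low-IL6 lungs (E3, E5, E6) and 8139, 4737, 4098 and 3804 in the high-IL6 lungs (E1, E2, E4, E7), and TNF had 49.0, 67.8 and 25.3 normalized reads in E3, E5 and E6, against 1796, 1083, 641 and 568 in E1, E2, E4 and E7. For both, every low-IL6 lung lay far under every high-IL6 lung, with slopes of 0.47 ± 0.09 (SE, adjusted p = 0.00157) for IL1B and 0.36 ± 0.12 (SE, adjusted p = 0.0303) for TNF. IL36A, an epithelial cytokine of the IL1 family, had 18.4, 1.69 and 15.4 normalized reads in the low-IL6 lungs (E3, E5, E6) and 437, 234, 1482 and 496 in the high-IL6 lungs (E1, E2, E4, E7), with a slope of 0.55 ± 0.09 (SE, adjusted p = 0.000344). IL10, the counter-regulatory cytokine, was low in all 7 ceftaroline plus MSC lungs. It had 6.12, 16.9 and 8.79 normalized reads in the low-IL6 lungs (E3, E5, E6) and 24.9, 34.0, 73.0 and 42.3 in the high-IL6 lungs (E1, E2, E4, E7). Ceftaroline lungs had 17.7 to 1714 normalized reads of IL10 as deposited. The slope of IL10, 0.28 ± 0.12 (SE, adjusted p = 0.108), was not called. In the whole cytokine list 11 of 16 described genes were lower in the low-IL6 lungs and IL18 alone was higher; 8 of 16 rose with IL6 and 0 fell.

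Among chemokines, 10 of 11 described genes were lower in all 3 low-IL6 lungs, with CCL20 the one that overlapped; 5 of 11 rose with IL6 elsewhere. CXCL8, the neutrophil attractant, had 1642, 831 and 609 normalized reads in the low-IL6 lungs (E3, E5, E6) and 8333, 11183, 10431 and 5425 in the high-IL6 lungs (E1, E2, E4, E7). On the common scale, the low-IL6 lungs had 458 to 1239 and the high-IL6 lungs 4105 to 8467, against 22893 to 267198 in NaCl lungs and 47.1 to 127.7 in healthy lungs. The high-IL6 lungs were therefore still under every NaCl lung, and the low-IL6 lungs above every healthy lung. Its slope was 0.59 ± 0.09 (SE, adjusted p = 0.000333). CCL4, which attracts monocytes and lymphocytes, had 664, 243 and 69.2 normalized reads in E3, E5 and E6, against 3615, 3458, 6998 and 1383 in E1, E2, E4 and E7, with E3 highest of the low-IL6 lungs, and a slope of 0.73 ± 0.14 (SE, adjusted p = 0.00162).

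IFNG and the 3 genes induced by interferon-gamma given next separated the sets, while their slopes on IL6 over the 21 other lungs were not called. IFNG, made by T and natural killer cells, had 5.1, 0 and 7.69 normalized reads in the low-IL6 lungs (E3, E5, E6) and 738, 422, 130.5 and 115 in the high-IL6 lungs (E1, E2, E4, E7). It came from 5, 0 and 7 reads in the low-IL6 libraries. CXCL11 and CXCL10, ligands of CXCR3 that interferon-gamma induces, were also low in E3, E5 and E6. CXCL11 had 396, 178 and 1027 normalized reads in the low-IL6 lungs (E3, E5, E6) and 62013, 36597, 17433 and 11324 in the high-IL6 lungs (E1, E2, E4, E7), and CXCL10 had 398, 326 and 650.4 normalized reads in E3, E5 and E6, against 41519, 23787, 12612 and 8607 in E1, E2, E4 and E7. E1 was highest and E7 lowest of the high-IL6 lungs for IFNG, CXCL11 and CXCL10. UBD, a ubiquitin-like protein induced by interferon-gamma and TNF, had 10.2, 0.85 and 26.4 normalized reads in the low-IL6 lungs (E3, E5, E6) and 2408, 1024, 549.5 and 368 in the high-IL6 lungs (E1, E2, E4, E7). Slopes were 0.45 ± 0.19 (SE, adjusted p = 0.0931) for IFNG, 0.34 ± 0.24 (SE, adjusted p = 0.329) for CXCL11, 0.33 ± 0.16 (SE, adjusted p = 0.15) for CXCL10 and 0.28 ± 0.22 (SE, adjusted p = 0.382) for UBD, none of them called. IL22, a T cell and innate lymphoid cytokine that acts on epithelium, had 0, 1.69 and 0 normalized reads in the low-IL6 lungs (E3, E5, E6) and 170.2, 144, 138 and 173 in the high-IL6 lungs (E1, E2, E4, E7). The low-IL6 lungs held 2 reads of IL22 in all, and its slope of 0.45 ± 0.23 (SE, adjusted p = 0.166) was not called. The choice of lungs changed some of these calls by limma. IFNG was called in ceftaroline lungs alone, at 0.59 (adjusted p = 0.0274), and in lungs whose titles lack the endings PD and PG (their meaning is not given), at 0.51 (adjusted p = 0.0177). IL22 was called in both as well, at 0.74 (adjusted p = 0.0168) in ceftaroline lungs alone and 0.55 (adjusted p = 0.00719) in lungs without these endings. SOCS1, described with the IL6 pathway, was called at 0.33 (adjusted p = 0.0459) in ceftaroline lungs alone and 0.29 (adjusted p = 0.0197) in lungs without these endings. CXCL11, CXCL10 and UBD were called in neither. The lungs without these endings leave out MSC replicate 6 (N5PG), a lung of low IL6. Without the 2 lungs of lowest IL6 the slopes of CXCL11, CXCL10, UBD and IL22 were below 0 and not called. T and natural killer cell markers summed to 894 to 1136 normalized reads in low-IL6 and 529 to 1011 in high-IL6 lungs. IL7R, higher in the low-IL6 lungs, held 531, 546 and 484 of these in E3, E5 and E6. PRF1 ran the other way with overlap, at 23.5, 7.63 and 36.25 in E3, E5 and E6. It had 73.3, 34.0, 47.55 and 57.6 in E1, E2, E4 and E7. Of the 5 described markers 0 were lower in all 3 low-IL6 lungs, and the median difference was -0.07 on the log2 scale. CD3E, LCK and NKG7 were listed at 0 in every library.

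For CXCL11, the high-IL6 lungs had 8568 to 46858 on the common scale, against 19.2 to 5710 in NaCl lungs. All 4 were thus above every NaCl lung, and CXCL9 shared this. Such CXCL11 levels were not particular to this group, as MSC lungs ran from 69.7 to 49922 and ceftaroline lungs from 211 to 38661. Over all described genes, 389 (3.85%) had all 4 high-IL6 lungs above all 7 NaCl lungs, and 1795 (17.8%) had all 3 low-IL6 lungs above them. All 7 described interferon-induced genes were lower in the low-IL6 lungs, beside 21.5% of all described genes. In the slope test 0 of 7 were called, beside 10.8% rising and 10.6% falling over all genes tested. OAS2, an antiviral oligoadenylate synthetase, had 646, 1079 and 1884 normalized reads in E3, E5 and E6, against 10341, 16098, 4086 and 8333 in E1, E2, E4 and E7. IFIT2, another interferon-induced gene, had 24.5, 26.3 and 50.5 normalized reads in the low-IL6 lungs (E3, E5, E6) and 462, 537, 136 and 397 in the high-IL6 lungs (E1, E2, E4, E7). E2 was highest of the 7 for both. Slopes were 0.15 ± 0.10 (SE, adjusted p = 0.308) for OAS2 and 0.05 ± 0.12 (SE, adjusted p = 0.777) for IFIT2. Whether slopes of this group differ from those of the cytokines was not tested.

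Of 6 described complement genes, 5 were lower in the low-IL6 lungs, beside 21.5% of all described genes. In the slope test 0 of 6 were called, beside 10.8% rising and 10.6% falling over all genes tested. C2, a serine protease of the classical pathway, had 565, 263 and 454 normalized reads in the low-IL6 lungs (E3, E5, E6) and 8438, 14053, 2194 and 3663 in the high-IL6 lungs (E1, E2, E4, E7), and C1R, which starts that pathway, had 7315, 6447 and 6162 normalized reads in E3, E5 and E6, against 25304, 22614, 12683 and 18072 in E1, E2, E4 and E7. For C1R, the low-IL6 lungs had 4641 to 5520 and the high-IL6 lungs 9586 to 19120 on the common scale, against 1982 to 8085 in NaCl lungs and 2702 to 10855 in healthy lungs. NaCl over healthy was -0.10 ± 0.33 (SE, adjusted p = 0.806) for C1R and 0.87 ± 0.57 (SE, adjusted p = 0.197) for C2, neither called by limma. CIITA, the master regulator of MHC class II, had 1021, 1092 and 1174 normalized reads in the low-IL6 lungs (E3, E5, E6) and 2139, 1826, 1766 and 1767 in the high-IL6 lungs (E1, E2, E4, E7). The sets did not overlap, and all 4 high-IL6 lungs were above every NaCl lung, at 1335 to 1616 against 195 to 851 on the common scale. For CIITA, MSC lungs ran from 501 to 2044 and ceftaroline lungs from 387 to 1738. Of 8 described class II genes 4 were lower in the low-IL6 lungs, CIITA, RFX5, CTSS and RLA-DMB, while CD74, HLA-DPA1, HLA-DMA and HLA-DOB overlapped. In the slope test 0 of 8 were called, beside the same shares over all genes tested. MARCO, a scavenger receptor of alveolar macrophages, had 90.8, 120.3 and 560.3 normalized reads in the low-IL6 lungs (E3, E5, E6) and 2387, 5738, 1506 and 4704 in the high-IL6 lungs (E1, E2, E4, E7), with E6 highest of the low-IL6 lungs. Its slope was 0.21 ± 0.12 (SE, adjusted p = 0.236) and NaCl over healthy was 1.77 ± 0.80 (SE, adjusted p = 0.0673), neither called.

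Feedback regulators of NF-kB went with IL6 in both settings, with 10 of 11 described genes lower in the low-IL6 lungs and 10 of 11 rising with IL6 in the 21 lungs. TNFAIP3 (A20), which removes ubiquitin chains to stop NF-kB signalling, had 32.6, 32.2 and 59.3 normalized reads in E3, E5 and E6, against 316, 498, 446 and 291 in E1, E2, E4 and E7. It was 9.31-fold lower in the low-IL6 lungs on the mean log2 scale, with a slope of 0.43 ± 0.05 (SE, adjusted p = 1.05e-05). BIRC3, a ubiquitin ligase downstream of TNF receptors, had 699.6, 448 and 892 normalized reads in the low-IL6 lungs (E3, E5, E6) and 17025, 11865, 7824 and 6029 in the high-IL6 lungs (E1, E2, E4, E7), with a slope of 0.44 ± 0.06 (SE, adjusted p = 0.000163). TNIP3 was the member whose sets overlapped.

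Matrix remodelling genes held steep slopes. ADAMTS4, a protease that cuts the proteoglycans aggrecan and versican, had 82.6, 449 and 114 normalized reads in the low-IL6 lungs (E3, E5, E6) and 8643, 9669, 15504 and 1921 in the high-IL6 lungs (E1, E2, E4, E7). Its slope was 0.78 ± 0.07 (SE, adjusted p = 3.36e-06), and 0.91 (adjusted p = 0.00147) without MSC replicate 6 and ceftaroline replicate 7. TNFAIP6, a hyaluronan-binding protein, had 86.7, 214 and 115 normalized reads in E3, E5 and E6, against 2032, 1101, 1458 and 919 in E1, E2, E4 and E7, with a slope of 0.45 ± 0.06 (SE, adjusted p = 4.57e-05). MMP1, a collagenase, had 12.2, 15.2 and 19.8 normalized reads in the low-IL6 lungs (E3, E5, E6) and 194, 144, 568 and 192 in the high-IL6 lungs (E1, E2, E4, E7), with a slope of 0.60 ± 0.13 (SE, adjusted p = 0.00287). E4 was highest for ADAMTS4 and MMP1. Of 10 described remodelling genes, 5 were lower in the low-IL6 lungs and 7 rose with IL6; HAS2, MMP10, MMP12, ADAMTS1 and TIMP3 overlapped. FGF23, a hormone known for lowering blood phosphate, had 10.2, 46.6 and 90.1 normalized reads in the low-IL6 lungs (E3, E5, E6) and 1225, 1293, 1895 and 307 in the high-IL6 lungs (E1, E2, E4, E7), with a slope of 0.84 ± 0.13 (SE, adjusted p = 0.000282). In the coagulation list, 4 of 7 were lower in the low-IL6 lungs, among them SERPINB2, the plasminogen activator inhibitor of monocytes, which had 20.4, 120.3 and 75.8 normalized reads in E3, E5 and E6, against 601, 427, 495 and 162 in E1, E2, E4 and E7, and THBS1, a platelet and matrix glycoprotein, which had 2025, 5899 and 2974 normalized reads in the low-IL6 lungs (E3, E5, E6) and 9535, 6741, 21503 and 8138 in the high-IL6 lungs (E1, E2, E4, E7).

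Neutrophil markers followed the same division. Summed over all 14 listed markers that have a row, the low-IL6 lungs had 25940 to 50830 normalized reads and the high-IL6 lungs 163801 to 739843. The other marker sums given here likewise run over all listed members that have a row. Of 8 described markers, 7 were lower in all 3 low-IL6 lungs and MPO overlapped, while 6 of 8 rose with IL6 in the 21 lungs; CSF3R, LCN2, MMP9, PADI4 and PGLYRP1 were listed at 0 in every library. S100A8, a subunit of the antimicrobial calprotectin dimer, had 16422, 7305 and 12263 normalized reads in the low-IL6 lungs (E3, E5, E6) and 234795, 292938, 92704 and 65351 in the high-IL6 lungs (E1, E2, E4, E7), with a slope of 0.34 ± 0.08 (SE, adjusted p = 0.0062). CAMP, the cathelicidin of neutrophil granules, had 77.5, 76.2 and 143 normalized reads in E3, E5 and E6, against 3841, 1699.7, 2037 and 327 in E1, E2, E4 and E7, with a slope of 0.64 ± 0.12 (SE, adjusted p = 0.000996). LTF, the iron-binding lactoferrin, had 63.2, 69.5 and 52.7 normalized reads in the low-IL6 lungs (E3, E5, E6) and 3828, 1955, 784 and 138 in the high-IL6 lungs (E1, E2, E4, E7). For CAMP and LTF, E7 was well under the other high-IL6 lungs. IL1R2, a decoy receptor for IL1, had 262, 245 and 174 normalized reads in the low-IL6 lungs (E3, E5, E6) and 4413, 5974, 5107 and 1715 in the high-IL6 lungs (E1, E2, E4, E7), with a slope of 0.39 ± 0.11 (SE, adjusted p = 0.016). The part of neutrophil content in the cytokine differences was not tested.

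Monocyte and macrophage markers summed to 18330 to 37421 normalized reads in low-IL6 and 40576 to 74965 in high-IL6 lungs. Of 14 described, 9 were lower in the low-IL6 lungs, beside 21.5% of all described genes. In the 21 other lungs 2 of 14, VCAN and FABP4, rose with IL6, beside 10.8% of all genes tested. CD14, the endotoxin co-receptor, had 4609.6, 6128 and 3928 normalized reads in E3, E5 and E6, against 12370.4, 18883, 13934 and 6447 in E1, E2, E4 and E7, and CD163, the haemoglobin scavenger receptor, had 124, 78.0 and 166 normalized reads in the low-IL6 lungs (E3, E5, E6) and 233, 348, 370.4 and 930.1 in the high-IL6 lungs (E1, E2, E4, E7). E7 was lowest of the high-IL6 lungs for CD14 and highest for CD163. Neither slope was called, at 0.15 ± 0.07 (SE, adjusted p = 0.127) for CD14 and -0.08 ± 0.09 (SE, adjusted p = 0.57) for CD163. PPARG, a nuclear receptor of alveolar macrophages, was the one marker higher in the low-IL6 lungs, with 483, 566 and 365 normalized reads in the low-IL6 lungs (E3, E5, E6) and 101, 122, 161 and 114 in the high-IL6 lungs (E1, E2, E4, E7).

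**Figure D4:**
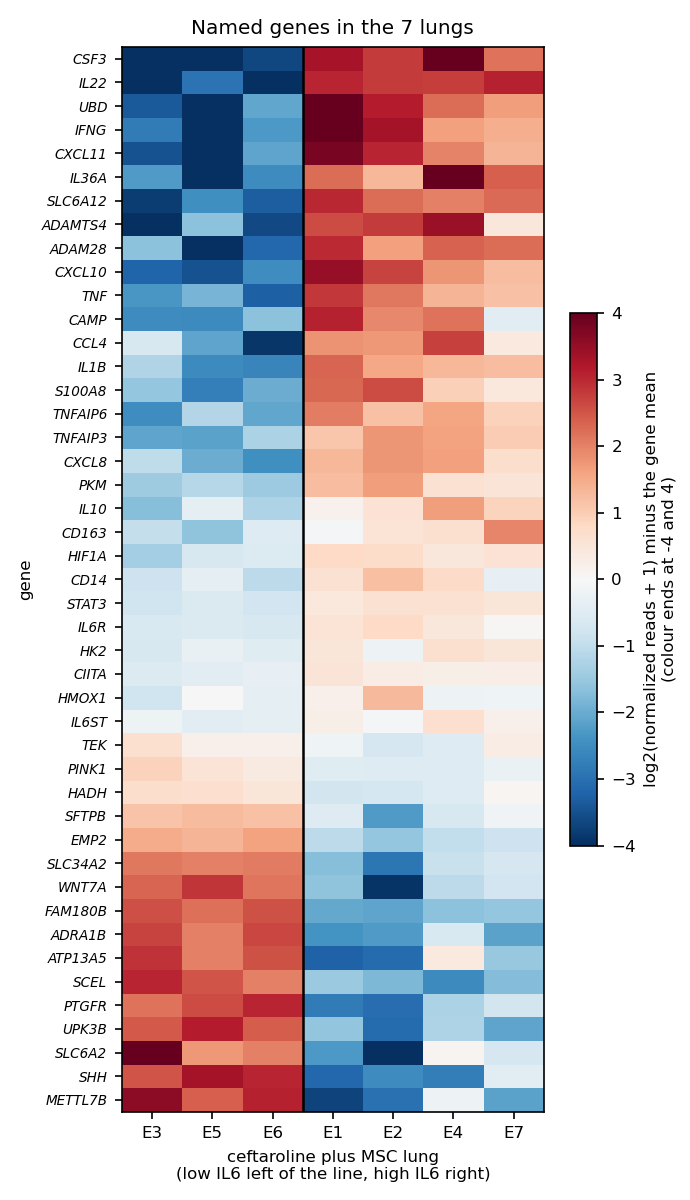
Each row is a named gene and each column a ceftaroline plus MSC lung, low-IL6 lungs left of the line; colour gives log2(normalized reads + 1) minus the gene's mean over the 7 lungs. The 3 low-IL6 lungs have blue inflammatory genes and red epithelial genes, and IL6ST, HK2, HMOX1 and TEK are nearly even.

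Alveolar epithelial genes were higher in the low-IL6 lungs. All 3 described type II markers and all 8 described type I markers were higher in all 3 low-IL6 lungs. The type II sum was 194025 to 209807 normalized reads in low-IL6 lungs and 17179 to 74378 in high-IL6 lungs, and the type I sum was 212813 to 237741 against 35748 to 71772. SLC34A2, the phosphate transporter of surfactant-producing cells, had 26198, 24643 and 26027 normalized reads in E3, E5 and E6, against 1871, 819.7, 3282 and 3806 in E1, E2, E4 and E7. The 3 low-IL6 values lay within a narrow range, and on the common scale (18695 to 19770) they fell inside the healthy range of 14865 to 29371. Its slope was -0.46 ± 0.15 (SE, adjusted p = 0.0359). SFTPB, surfactant protein B, had 165196, 182478 and 167689 normalized reads in the low-IL6 lungs (E3, E5, E6) and 52274, 15699, 47870.1 and 68439.7 in the high-IL6 lungs (E1, E2, E4, E7), with a slope of -0.23 ± 0.09 (SE, adjusted p = 0.0697) that was not called. EMP2, a tetraspan membrane protein of type I cells, had 15719, 14574 and 17294 normalized reads in the low-IL6 lungs (E3, E5, E6) and 2734, 1925, 2839.5 and 3166 in the high-IL6 lungs (E1, E2, E4, E7), with a slope of -0.21 ± 0.06 (SE, adjusted p = 0.0218). CLDN18, the alveolar tight junction claudin, had 46191, 48807 and 53608 normalized reads in E3, E5 and E6, against 5754, 2740.5, 7093 and 10157 in E1, E2, E4 and E7, and RTKN2, a type I cell marker, had 113, 108 and 131 normalized reads in the low-IL6 lungs (E3, E5, E6) and 9.16, 17, 11.1 and 12.4 in the high-IL6 lungs (E1, E2, E4, E7); neither had a called slope. ABCA3, CTSH, SFTPC and SFTPD were listed at 0 in every library. In the slope test 2 of 3 type II and 1 of 7 type I markers fell with IL6, beside 10.6% of all genes tested.

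The 10 largest differences upward, counted over named genes averaging 50 normalized reads or more, included epithelial and mesothelial genes. SHH, the hedgehog ligand of epithelium, had 641, 1113 and 925 normalized reads in the low-IL6 lungs (E3, E5, E6) and 11.8, 18.6, 15.5 and 80.2 in the high-IL6 lungs (E1, E2, E4, E7). On the common scale the low-IL6 lungs had 484 to 845, above the healthy range of 188 to 260.5. SHH was at 539 in ceftaroline replicate 7, also above that range, and at 245 in MSC replicate 6, inside it. Its slope was -0.41 ± 0.11 (SE, adjusted p = 0.0127). WNT7A, a Wnt ligand, had 193, 280.4 and 170.3 normalized reads in E3, E5 and E6, against 11.8, 1.55, 17.7 and 21.9 in E1, E2, E4 and E7, and SCEL, an epithelial envelope precursor, had 206, 141 and 99.97 normalized reads in the low-IL6 lungs (E3, E5, E6) and 7.86, 6.19, 3.32 and 6.56 in the high-IL6 lungs (E1, E2, E4, E7); slopes were -0.26 ± 0.14 (SE, adjusted p = 0.197) for WNT7A and -0.23 ± 0.11 (SE, adjusted p = 0.141) for SCEL, not called. UPK3B, a mesothelial uroplakin, had 1419, 2289 and 1394 normalized reads in the low-IL6 lungs (E3, E5, E6) and 85.1, 29.4, 108 and 59.0 in the high-IL6 lungs (E1, E2, E4, E7), with a slope of -0.20 ± 0.09 (SE, adjusted p = 0.131) that was not called. The largest of the 10 was METTL7B, a thiol methyltransferase, with 982, 429 and 688 normalized reads in E3, E5 and E6, against 5.24, 9.28, 70.8 and 17.5 in E1, E2, E4 and E7, a difference of 5.28 on the log2 scale; its slope of -0.27 ± 0.12 (SE, adjusted p = 0.0971) was not called either. PTGFR (the prostaglandin F receptor), ADRA1B (an adrenergic receptor), FAM180B and ATP13A5 were also among the 10, with differences of 4.57, 4.31, 4.28 and 4.35 on the log2 scale. SLC6A2, described with the endothelial genes, was the other. Of PTGFR, ADRA1B, FAM180B and ATP13A5, FAM180B fell with IL6, at -0.51 ± 0.13 (SE, adjusted p = 0.00953), and ATP13A5 was too low in the 21 lungs to be tested.

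Of 11 described endothelial genes, 3 were lower and 4 higher in the low-IL6 lungs, beside 21.5% and 21.3% of all described genes. SELP, the P-selectin that captures leukocytes, had 886, 708 and 1379 normalized reads in the low-IL6 lungs (E3, E5, E6) and 7631, 5839.7, 8114 and 6814 in the high-IL6 lungs (E1, E2, E4, E7), and E-selectin (SELE) had 19.4, 38.1 and 48.3 normalized reads in the low-IL6 lungs (E3, E5, E6) and 275, 268, 269 and 149 in the high-IL6 lungs (E1, E2, E4, E7). SELP rose with IL6, at 0.42 ± 0.04 (SE, adjusted p = 6.57e-06); SELE was not called, at 0.29 ± 0.11 (SE, adjusted p = 0.0688). SLC6A2, which takes noradrenaline up into lung endothelium, had 6835, 1118 and 1340.3 normalized reads in E3, E5 and E6, against 66.8, 7.73, 360.5 and 207 in E1, E2, E4 and E7. E3 stood above all other lungs and E2 below, and the slope was -0.59 ± 0.17 (SE, adjusted p = 0.0184). CD300LG, a receptor of capillary endothelium, had 1310.5, 453 and 542 normalized reads in the low-IL6 lungs (E3, E5, E6) and 89.0, 34.0, 181 and 97.7 in the high-IL6 lungs (E1, E2, E4, E7), with a slope of -0.49 ± 0.08 (SE, adjusted p = 0.000364). TEK, the angiopoietin receptor, had 1101, 811 and 802 normalized reads in the low-IL6 lungs (E3, E5, E6) and 624, 438, 493 and 852 in the high-IL6 lungs (E1, E2, E4, E7); E7 overlapped the low-IL6 lungs, and the slope was -0.15 ± 0.05 (SE, adjusted p = 0.0292). The endothelial sums overlapped, at 18470 to 24923 in low-IL6 and 24485 to 26472 in high-IL6 lungs.

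Fibroblast genes were higher in low-IL6 lungs for 4 of 7 and fell with IL6 for 4 of 7. TCF21, a transcription factor of lung fibroblasts, had 4435, 3436 and 4617 normalized reads in E3, E5 and E6, against 1872, 1287, 804 and 1673 in E1, E2, E4 and E7, with a slope of -0.32 ± 0.06 (SE, adjusted p = 0.00128); LUM, the proteoglycan lumican, had 1908, 1984 and 1414 normalized reads in the low-IL6 lungs (E3, E5, E6) and 437, 1341, 616 and 1148 in the high-IL6 lungs (E1, E2, E4, E7). E3 had 2268 normalized reads of MYH11, smooth muscle myosin, against 322 to 741 in the 6 other lungs. Of 6 smooth muscle and pericyte markers, 0 separated the sets. SMTNL2, a smoothelin-like gene, had 330.4, 371 and 241 normalized reads in the low-IL6 lungs (E3, E5, E6) and 52.4, 55.7, 65.2 and 129 in the high-IL6 lungs (E1, E2, E4, E7), with a slope of -0.59 ± 0.09 (SE, adjusted p = 0.000268).

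Energy genes separated by pathway. Of 9 described glycolysis genes, 8 were lower in the low-IL6 lungs and 3 rose with IL6. PKM, pyruvate kinase, had 10462, 12819 and 10305 normalized reads in E3, E5 and E6, against 66015, 89133, 42925 and 40458 in E1, E2, E4 and E7, and SLC2A1, the glucose transporter, had 297, 280.4 and 298 normalized reads in the low-IL6 lungs (E3, E5, E6) and 894, 875, 665 and 392 in the high-IL6 lungs (E1, E2, E4, E7). HK2, hexokinase of the first step, had 2661, 3320.4 and 2949.7 normalized reads in the low-IL6 lungs (E3, E5, E6) and 5826, 3611, 6373 and 5788 in the high-IL6 lungs (E1, E2, E4, E7), with E2 close to the low-IL6 lungs. Slopes were 0.25 ± 0.06 (SE, adjusted p = 0.00818) for PKM, 0.24 ± 0.07 (SE, adjusted p = 0.0239) for SLC2A1 and 0.11 ± 0.04 (SE, adjusted p = 0.0326) for HK2. Fatty acid oxidation ran the other way: 5 of 10 were higher and 1, ACADVL, lower in low-IL6 lungs, and 8 of 10 fell with IL6. HADH, which oxidizes hydroxyacyl-CoA, had 2049, 1974 and 1740.1 normalized reads in E3, E5 and E6, against 750.2, 772, 874 and 1330.2 in E1, E2, E4 and E7, with a slope of -0.18 ± 0.03 (SE, adjusted p = 0.00129). ACADM, the medium-chain dehydrogenase, had 1288, 1559 and 1494 normalized reads in the low-IL6 lungs (E3, E5, E6) and 655, 612, 597 and 716 in the high-IL6 lungs (E1, E2, E4, E7).

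Of 13 described mitochondrial respiratory subunits, 4 were lower and 2 higher in low-IL6 lungs, beside 21.5% and 21.3% of all described genes, with the list median at -0.02 on the log2 scale against 0.01 over all described genes. NDUFS1 of complex I had 1257, 1380.2 and 1465 normalized reads in the low-IL6 lungs (E3, E5, E6) and 2062, 1508, 1639 and 2034 in the high-IL6 lungs (E1, E2, E4, E7), and NDUFS4 of the same complex had 2780.0, 2543 and 2606 normalized reads in E3, E5 and E6, against 2350.0, 2097, 1983 and 2003 in E1, E2, E4 and E7, in the opposite direction. In the biogenesis and quality control list 6 of 12 were lower and only PINK1, a kinase that tags depolarized mitochondria for mitophagy, was higher. PINK1 had 7473, 5804 and 5013 normalized reads in the low-IL6 lungs (E3, E5, E6) and 2789, 2740.5, 2728 and 3259.7 in the high-IL6 lungs (E1, E2, E4, E7), with a slope of -0.15 ± 0.03 (SE, adjusted p = 0.00462). MIEF1, which recruits the fission machinery, had 7705, 8264 and 6746 normalized reads in the low-IL6 lungs (E3, E5, E6) and 15404, 15773, 15002 and 10563 in the high-IL6 lungs (E1, E2, E4, E7).

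Hypoxia and stress genes were lower in the low-IL6 lungs for 5 of 11 and 5 of 6 described members, and 1 hypoxia gene, MXI1, was higher. Of 10 hypoxia genes tested for a slope 1 rose with IL6, HIF1A, near the 10.8% of all genes tested. HIF1A, the oxygen-regulated transcription factor, had 1694, 2788 and 2984 normalized reads in E3, E5 and E6, against 7559, 7210.0, 5991 and 6514 in E1, E2, E4 and E7, with a slope of 0.21 ± 0.04 (SE, adjusted p = 0.0012). EGLN3, a prolyl hydroxylase it induces, had 857, 992 and 828 normalized reads in the low-IL6 lungs (E3, E5, E6) and 5468, 5702, 1566 and 1488 in the high-IL6 lungs (E1, E2, E4, E7), where E1 and E2 stood apart from E4 and E7; its slope of 0.17 ± 0.09 (SE, adjusted p = 0.173) was not called. DDIT4, an inhibitor of mTOR signalling, had 6639, 7834 and 9787 normalized reads in the low-IL6 lungs (E3, E5, E6) and 32080.0, 27522, 20574 and 16585 in the high-IL6 lungs (E1, E2, E4, E7), with a slope of 0.09 ± 0.07 (SE, adjusted p = 0.361) that was not called. ATF3 had 429, 526 and 280.1 normalized reads in E3, E5 and E6, against 2619.7, 1839, 1289 and 1415 in E1, E2, E4 and E7, with a slope of 0.28 ± 0.07 (SE, adjusted p = 0.00701). CHAC1, a glutathione-degrading enzyme of the same stress response, had 69.3, 176 and 91.2 normalized reads in the low-IL6 lungs (E3, E5, E6) and 940.0, 854, 951 and 299 in the high-IL6 lungs (E1, E2, E4, E7). HMOX1, haem oxygenase, overlapped, at 3035, 5326 and 4081 normalized reads in the low-IL6 lungs (E3, E5, E6) and 6052, 12937, 4514 and 4625 in the high-IL6 lungs (E1, E2, E4, E7), although it rose with IL6 in the 21 lungs at 0.25 ± 0.05 (SE, adjusted p = 0.00161). SOD3, the extracellular superoxide dismutase, had 884, 484 and 370.2 normalized reads in the low-IL6 lungs (E3, E5, E6) and 123, 111, 168 and 101 in the high-IL6 lungs (E1, E2, E4, E7). Of 12 antioxidant genes, 3 were lower and 3 higher in low-IL6 lungs, near the 21.5% and 21.3% of all described genes.

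None of the 8 B and plasma cell markers and none of the 8 airway markers separated the sets, and of 5 T and natural killer markers IL7R alone did, being higher in the low-IL6 lungs. The airway sum was 8825 to 32195 in low-IL6 and 1373 to 17184 normalized reads in high-IL6 lungs; the median difference of the 8 markers was 1.27 on the log2 scale, and SCGB3A2 and KRT5 differed by 2.41 and 2.57 with overlapping sets. SCGB1A1 and FOXJ1, defining airway genes, were listed at 0 in every library. Red cell genes summed to 123513 to 287007 in low-IL6 and 57434 to 196466 in high-IL6 lungs, with 0 of 5 separated. Of 12 cell cycle genes, PCNA alone separated, being higher in low-IL6 lungs.

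**Figure D5:**
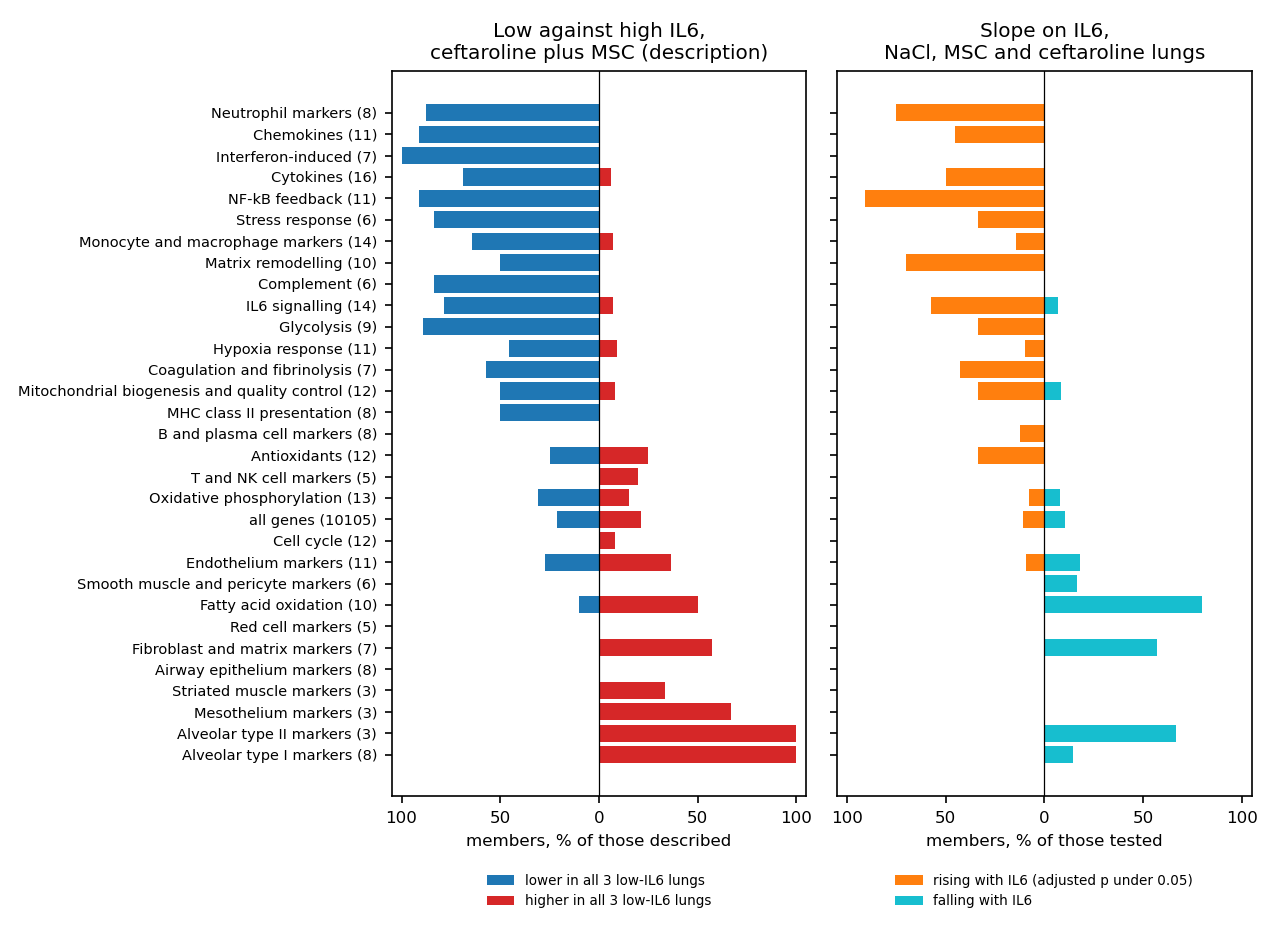
For each gene list, with the number of described members in parentheses: left, the percent lower (blue, leftward) or higher (red, rightward) in all 3 low-IL6 lungs than in every high-IL6 lung; right, the percent rising (orange) or falling (turquoise) with IL6 in the 21 other pneumonia lungs. Interferon-induced and complement genes have full or nearly full bars on the left and 0 on the right, while NF-kB feedback genes have long bars on both. Over all described genes 21.5% were lower and 21.3% higher. Over all genes tested for a slope 10.8% rose and 10.6% fell. Whether any list differs from these shares was not tested.

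The other pneumonia lungs of low IL6 resembled the low-IL6 set. Ceftaroline replicate 7 was the lowest of its 7 lungs for 1427 of 2164 genes that were lower in the low-IL6 lungs (65.9%), compared with 24% of all 9712 genes. It was the highest for 1280 of 2043 genes that were higher in the low-IL6 lungs (62.7%), compared with 22.7% of all. MSC replicate 6 was the lowest of its group for 1423 of 2160 (65.9%, against 24.8% of all) and the highest for 1448 of 2064 (70.2%, against 24.3% of all). For SLC34A2 these lungs had 17014 and 15141 on the common scale, inside the healthy range. This was not particular to lungs of low IL6. The other ceftaroline lungs ran from 190 to 18810, reaching above replicate 7 and into the healthy range. The other MSC lungs ran from 61.1 to 5009.

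Not all genes of the low-IL6 lungs stood near the healthy level. Of 1596 genes higher in NaCl than healthy lungs, 1079 (67.6%) had less than 0.5 of the difference in all 3 low-IL6 lungs, and of 1895 lower genes 1273 (67.2%) did. In 19 and 8 genes, all 3 kept more than 0.8 of it. Named after their values were seen, these include XDH, IL13RA2 and MMP12. XDH, xanthine dehydrogenase, had 212, 220.3 and 260.4 normalized reads in E3, E5 and E6, against 2283, 2934, 1748 and 1953 in E1, E2, E4 and E7. IL13RA2, the decoy receptor of IL13, had 907, 1256 and 819.5 normalized reads in the low-IL6 lungs (E3, E5, E6) and 1069.6, 249, 689 and 1284 in the high-IL6 lungs (E1, E2, E4, E7), and MMP12, the macrophage elastase, had 5308, 10207 and 4621 normalized reads in the low-IL6 lungs (E3, E5, E6) and 5051, 2768, 2185 and 4925 in the high-IL6 lungs (E1, E2, E4, E7). The sets overlapped for IL13RA2 and MMP12. PYY, a gut peptide hormone, had 313, 276 and 336 normalized reads in E3, E5 and E6, against 51.1, 3.09, 5.53 and 55.4 in E1, E2, E4 and E7. Its low-IL6 lungs reached 210 to 253 on the common scale, against 0 to 14.5 in NaCl lungs and 1.57 to 163 in healthy lungs. Such levels were not particular to lungs of low IL6. Ceftaroline replicate 7 had 467 and the other ceftaroline lungs 0 to 382. MSC replicate 6 had 37.7 and the other MSC lungs 0 to 264. The slope of PYY was -0.63 ± 0.19 (SE, adjusted p = 0.0247).

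Taken as labelled, few genes were called between the 7 ceftaroline plus MSC lungs and the 7 ceftaroline lungs, which does not show that the groups were alike. Limma called 4 of 10085 genes (0.0397%), 3 higher and 1 lower, with 1156 at an unadjusted p under 0.05; edgeR called 4 higher and 1 lower. Of the genes in the authors' deposited table, 108 had an adjusted p under 0.05, and IL6 had a log2 fold change of -1.72 (SE 1.2) at an adjusted p of 0.486. Within the ceftaroline group 1 of 7 lungs was under 100 normalized reads of IL6 in that table, against 3 of 7 in the ceftaroline plus MSC group. CSF3 differed by -2.65 ± 1.70 (SE, adjusted p = 0.489) and CXCL8 by -2.72 ± 0.98 (SE, adjusted p = 0.417) on the log2 scale between the groups, neither called. The spread inside the group described above is part of the error of that comparison.

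The sets hold 3 and 4 animals and were chosen by a measured gene, so their separation tests neither the treatment nor IL6. Time of death, bacterial load and the lung piece sampled are not given per animal, and their part in the division was not tested.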

How the data were processed

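Lung RNA of 35 rabbits was sequenced as stranded poly(A) libraries. Per the labels' protocols, bcl2fastq2 2.18.12 split the reads by sample and Cutadapt 1.15 removed adapters; the submitters' processing notes name TopHat2 2.1.1, featureCounts 1.5.2 and DESeq2 1.24.0. Build and annotation: not given in the sources used here. Per the file headers, each of 4 deposited tables compares 2 groups and holds normalized reads per gene (a coverage-like signal: read counts divided by a size factor by the authors), with the authors' log2 fold change, test statistic (a score) and p-value.

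All 1325464 deposited values came out as whole reads (100.0%, relative tolerance 1e-06) and were rescaled with median-of-ratios size factors over the 35 libraries. The 7 ceftaroline plus MSC lungs were split at 100 of the deposited IL6 value and only described, over genes with a mean of at least 10 and log2(value + 1). Slopes on IL6 in 21 other lungs, ceftaroline plus MSC against ceftaroline and NaCl against healthy were tested with limma 3.58.1 (trend, two-sided, Benjamini-Hochberg over all genes, mean of at least 10, pseudocount 1) in R 4.3.3; group was a covariate of the slopes. The slope fit was tested on simulated data. A log2(value + 1) change understates that of low genes. Alternatives were edgeR 4.0.16, DESeq2 1.42.0, TMM, a pseudocount of 5, no filter, single groups, each library left out and the title endings PD and PG, whose meaning is not given. Named genes were the 10 largest lower and 10 largest higher differences (mean of at least 50), the 5 steepest rising and falling called slopes, a panel of 28 and up to 2 members of each of 30 lists. A gene that met this rule is not reported here. Members, lists and panel were chosen with earlier results of these data known. Depth ran from 7567008 to 33209729 reads per library, and no interval beyond the spread between animals is given. No sequence is printed.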

Additional observations from a re-analysis of the deposited data

Results flagged for a closer look

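Of 98 named genes, 15 had 1 lung of the 7 ceftaroline plus MSC lungs far from the other 6, by Dixon's test on normalized reads. Chance flags about 1 in 20 such groups, and genes of 1 lung are not independent. No explanation was tested.

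E3, a low-IL6 lung, was the highest for SLC6A2 (6835), CD300LG (1310.5), MYH11 (2268), LMOD1 (1279) and TNNT2 (493), a transporter and a receptor of endothelium and contractile genes of smooth and striated muscle. E5, also low-IL6, was the highest for the replication genes MCM5 (1740.2) and PCNA (3131).

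Among the high-IL6 lungs, E4 was the highest for CSF3 (3396), IL36A (1482), THBS1 (21503) and MMP1 (568). E1 was the highest for UBD (2408) and for MZB1 (2684), a plasma cell gene. E2 was the highest for HMOX1 (12937), and E7 for CD163 (930.1).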

How the results depend on the processing

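The positions between healthy and NaCl lungs and the counts of genes separating the sets moved by less than 1.5 times in every alternative run; with 1 lung left out, 2319 to 2591 genes were lower and 2298 to 2535 higher in the low-IL6 lungs. Slope counts, 1058 rising and 1034 falling, depended on which lungs entered. They were 0 and 0 in NaCl lungs alone, 27 and 29 in MSC lungs alone, 507 and 493 in ceftaroline lungs alone, 240 and 241 without the 2 lungs farthest from the median IL6, 288 and 212 in the deposited NaCl and ceftaroline table, 120 and 65 in the NaCl and MSC table, 13 and 1 in lungs with a title ending (added after seeing the data), and 478 and 404 at an adjusted p of 0.01. Leaving out 1 lung gave 538 to 1179 rising and 499 to 1318 falling, lowest without ceftaroline replicate 7 or MSC replicate 6 (608 and 568). edgeR called 1000 and 1327, DESeq2 1341 and 1451. The slope fit in lungs with a title ending used NaCl lungs I3PG, I5PG and L4PG and MSC lungs N5PG and N6PG. Only N5PG (MSC replicate 6) of these had low IL6, and the fit in lungs without an ending leaves it out. Over all named slopes and alternatives, 2838 values kept their direction and side of the threshold, 288 lost a call, 82 gained one and 141 turned. Among the named genes, 49 of 94 slopes turned in NaCl lungs alone, 16 of them called over the 21 lungs and none called in NaCl lungs (adjusted p at least 0.737): IL22 -0.33, UBD -0.62, CXCL11 -0.28, ADAM28 -0.14, METTL7B 0.34, SHH 0.13, SLC6A2 0.17, UPK3B 0.32, PTGFR 0.58, SCEL 0.43, ADRA1B 0.072, FAM180B 0.60, WNT7A 0.34, FGF23 -0.16, IL10 -0.27, IL6R -0.26, S100A8 -0.19, CD14 -0.18, SLC34A2 0.10, SFTPB 0.18, EMP2 0.28, TEK 0.020, PKM -0.092, HK2 -0.017, SOCS1 -0.062, IFIT2 -0.034, OAS2 -0.15, IL1R2 -0.40, LTF -0.12, MARCO -0.45, PPARG 0.031, PRF1 -0.12, TNFRSF17 0.26, CTSS -0.34, RTKN2 0.27, CLDN18 0.34, KRT5 -0.32, MYH11 0.14, LUM 0.089, TNNT2 0.50, SLC2A1 -0.20, NDUFS1 -0.0063, NDUFS4 0.033, ACADM 0.10, MIEF1 -0.025, EGLN3 -0.39, DDIT4 -0.23, SOD3 0.48 and C2 -0.30. Without the 2 lungs farthest from the median IL6, 20 of 96 turned, none called either way (adjusted p at least 0.263): IL22 -0.067, UBD -0.29, CXCL11 -0.25, CXCL10 -0.058, METTL7B 0.15, PTGFR 0.11, ADRA1B 0.090, IL6R -0.063, IFIT2 -0.13, OAS2 -0.11, PRF1 -0.0091, TNFRSF17 0.14, CTSS -0.21, RTKN2 0.062, TNNT2 0.20, NDUFS1 -0.015, EGLN3 -0.16, DDIT4 -0.072, C2 -0.36 and PCNA 0.0061. In lungs with a title ending 14 of 91 turned, none called either way: CXCL11 -0.11, CXCL10 -0.011, CD163 0.026, IFIT2 -0.24, OAS2 -0.019, MARCO -0.10, PRF1 -0.022, MZB1 -0.072, RLA-DMB 0.027, HBB2 -0.052, ALAS2 -0.050, C2 -0.018, MCM5 0.019 and PCNA 0.013. Uncalled slopes turned in MSC lungs alone (CD163 0.083, CIITA 0.031, IFIT2 -0.029, RLA-DMB 0.015 and C1R 0.046), in ceftaroline lungs alone (IL7R -0.074, MZB1 -0.046, KRT5 -0.079 and SCGB3A2 -0.21) and in lungs without a title ending (TNFRSF17 0.041, CTSS -0.019, KRT5 -0.030, SCGB3A2 -0.020 and TNNT2 0.067). Uncalled slopes turned in the NaCl and ceftaroline table (TNFRSF17 0.00070, CTSS -0.0034, KRT5 -0.14, SCGB3A2 -0.090 and TNNT2 0.11), in the NaCl and MSC table (IFIT2 -0.030, PRF1 -0.005, TNFRSF17 0.027 and CTSS -0.017) and with the ending as covariate (MZB1 -0.011 and CTSS -0.014). Uncalled slopes turned by edgeR (CTSS -0.0074 and SCGB3A2 -0.034), by DESeq2 (CTSS -0.0055 and SCGB3A2 -0.032) and with TMM library sizes (SCGB3A2 -0.0024). With 1 lung left out, the slopes that turned, none called over the 21 lungs, ranged as follows: C1R -0.099 to 0.019, C2 -0.018 to 0.17, CTSS -0.053 to 0.073, IFIT2 -0.046 to 0.12, KRT5 -0.048 to 0.090, MZB1 -0.026 to 0.044, SCGB3A2 -0.037 to 0.15, TNFRSF17 -0.040 to 0.024 and TNNT2 -0.11 to 0.099. The cause was not tested. NaCl against healthy called 1690 genes lower, not 2974, without title endings. That run kept only A3 and A9 of the healthy lungs and B1, B2, B6 and B7 of the NaCl lungs. PD occurred only in healthy titles, and no ceftaroline or ceftaroline plus MSC title had an ending. Title ending and group can thus not be fully told apart, also at the healthy end of the position scale. Animal numbers did not pair the ceftaroline plus MSC and ceftaroline lungs: 4 of 7 correlations of same-numbered lungs were over 0.1 and 0 of 7 lungs correlated best with their own number. With the replicate block, 0 genes were higher and 0 lower (1309 at an unadjusted p under 0.05, limma). The number of lungs per set limits these descriptions.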
